A study of Mus musculus with 9 samples.

Results

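Serpins are a superfamily of proteins that mostly inhibit proteases. An inhibitory serpin offers an exposed reactive loop as bait, is cut by its target protease, and then traps that protease by refolding, so that each molecule acts once. Members of clade A are mostly secreted, members of clade B mostly stay inside the cell, and a few members have lost the inhibitory function. In pancreatic tumors they meet proteases released by leukocytes, by stromal cells and by the tumor cells themselves.

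The 10 serpin genes described here were taken by name from a table of 54453 gene rows. They were Serpina3g, Serpina3n, Serpina3f and Serpina3i of the Serpina3 cluster, Serpinb1a, Serpinb5, Serpinb6a and Serpinb9 of clade B, and Serpinf1 and Serpine2. A further 51 annotated serpin genes that are not pseudogenes were kept apart for comparison. The 10 genes were selected on their null over WT differences in these same counts, so those differences are given as a description, without a test.

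The RNA came from whole primary pancreatic tumors of the KPC strain, a mouse model of pancreatic ductal adenocarcinoma that depends on a Cre transgene. The study compared 5 tumors labelled Scrib null (KPF/+CSF/F; tumors 7, 14, 15, 18 and 23) with 4 tumors labelled Scrib WT (KPF/+C; tumors 2, 3, 6 and 9), so that both groups carried the KPF/+C alleles. Scrib is a cell polarity gene of epithelia. The labels do not spell out the letters of the genotypes, name the promoter of the Cre transgene, give the age of the animals or say that each tumor came from a separate mouse, so every error below measures the spread between these tumors. If F/F marks a floxed allele, Scrib was deleted only in cells that had expressed Cre.

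Estimated counts summed to between 10145830 and 27596832 per tumor. Scrib mRNA averaged 60.3 ± 24.6 CPM (read counts relative to the TMM-scaled library size; SD, n = 5) in null tumors and 70.5 ± 21.4 CPM (SD, n = 4) in WT tumors. This difference was smaller than the spread (edgeR adjusted p = 0.712, with a log2 fold change of -0.23). Null 7 had the highest Scrib level of all 9 tumors, 102.2 CPM, against 36.9 to 55.4 CPM in the other null tumors and 44.1 to 88.5 CPM in WT tumors. Scrib totals of whole tumors thus did not separate the labels, and they cannot show whether the gene was deleted in part of the cells. The terms null and WT are used throughout for tumors labelled so. Tumors null 7 and WT 3 were known from earlier results on these data to stand apart from the rest. Epithelial RNA was present in every tumor, with Epcam, an epithelial adhesion gene, at 934.2 to 1449.8 CPM in null tumors and at 1008.5 to 1439.5 CPM in WT tumors.

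The 4 Serpina3 genes lie in 1 cluster on chromosome 12, with other Serpina3 genes and pseudogenes between them (GRCm38, 104214544 to 104414329 from the start of Serpina3f to the end of Serpina3n, plus strand). Their promoters are shown because the genes are copies of each other and had their highest level in the same tumor, WT 2. The RefSeq promoter table for GRCm38.p6 had an entry for 9 of the 10 genes, all but Serpinb1a. These 300-base windows around the start sites run 5′ to 3′ on the plus strand. Capitals mark matches to the STAT motif TTCNNNGAA or to the glucocorticoid receptor motif ACANNNTGT, each of which reads the same on both strands and neither of which overlapped the other here.
Serpina3g, chr12:104235897-104236196: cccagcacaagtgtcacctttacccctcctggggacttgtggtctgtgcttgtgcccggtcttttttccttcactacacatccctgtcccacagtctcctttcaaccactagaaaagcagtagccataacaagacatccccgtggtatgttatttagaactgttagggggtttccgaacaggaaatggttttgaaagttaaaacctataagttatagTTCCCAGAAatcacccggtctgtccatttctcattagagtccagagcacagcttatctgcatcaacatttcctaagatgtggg
Serpina3n, chr12:104406458-104406757: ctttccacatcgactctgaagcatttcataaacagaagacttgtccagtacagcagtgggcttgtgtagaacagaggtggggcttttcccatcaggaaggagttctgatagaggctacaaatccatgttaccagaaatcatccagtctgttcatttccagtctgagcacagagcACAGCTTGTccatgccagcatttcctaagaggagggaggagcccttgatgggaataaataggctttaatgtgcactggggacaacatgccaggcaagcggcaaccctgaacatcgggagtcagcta
Serpina3f, chr12:104214294-104214593: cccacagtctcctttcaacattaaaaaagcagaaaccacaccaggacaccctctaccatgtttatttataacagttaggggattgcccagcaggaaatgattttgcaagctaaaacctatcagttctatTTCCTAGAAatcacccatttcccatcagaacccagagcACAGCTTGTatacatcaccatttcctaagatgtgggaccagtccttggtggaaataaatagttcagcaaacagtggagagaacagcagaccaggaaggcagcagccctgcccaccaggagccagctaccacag
Serpina3i, chr12:104262872-104263171: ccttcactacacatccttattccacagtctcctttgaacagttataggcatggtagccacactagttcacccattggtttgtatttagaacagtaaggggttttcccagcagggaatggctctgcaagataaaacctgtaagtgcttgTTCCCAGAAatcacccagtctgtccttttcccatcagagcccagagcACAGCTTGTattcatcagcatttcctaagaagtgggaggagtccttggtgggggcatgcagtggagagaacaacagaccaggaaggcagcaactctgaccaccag

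The STAT motif was present in the Serpina3g, Serpina3f and Serpina3i windows, with its first base at positions -33, -121 and -102 relative to the RefSeq start. It was in 8.3% of 32851 promoters of the same length. For Serpina3g the gene start in GENCODE M21, 104236245, lies beyond the end of the window. From that start the match would lie further upstream, so its position depends on the annotation. The glucocorticoid receptor motif was present in the Serpina3n, Serpina3f and Serpina3i windows, at positions -76, -83 and -55, and in 6.8% of all promoters. The table lists a second start for Serpina3f, from which the same STAT and glucocorticoid receptor matches lie at positions -210 and -172. All 4 windows shown held at least 1 of these motifs, within a stretch that the genes share. The stretch from the STAT match to the end of the glucocorticoid receptor match of Serpina3i aligned to each of the others as follows, with the same use of capitals.
Serpina3g: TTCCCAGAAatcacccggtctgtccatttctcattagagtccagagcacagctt
Serpina3n: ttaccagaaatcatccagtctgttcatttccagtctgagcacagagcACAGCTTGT
Serpina3f: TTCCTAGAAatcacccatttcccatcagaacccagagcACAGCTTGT
Serpina3i: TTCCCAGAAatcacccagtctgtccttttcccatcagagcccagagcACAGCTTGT

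Counted from 1 at the first base of the Serpina3i stretch, Serpina3n carried C3A inside the STAT letters, which ended the match there. Serpina3f carried C5T inside the same letters and still matched. The Serpina3g stretch was identical to that of Serpina3i at 49 of 54 aligned bases, with no change inside the STAT letters, and the alignment ended before the last bases of the glucocorticoid receptor letters. Serpina3n was identical at 48 of 56 bases, and Serpina3f at 45 of 47 bases with 1 gap. Among the clade B genes, an interferon regulatory factor motif (GAAA repeated after any 2 bases, searched on both strands and held by 3.4% of all promoters) was found in Serpinb9, at position -46, and in Serpinb6a, at position -84 of 1 of its 2 windows. That Serpinb6a window also held the STAT motif, at positions -77 and 21. These matches describe letters, and binding was not measured.

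Serpina3g, also known as Spi2A, encodes an inhibitor of cysteine cathepsins that stays inside the cell and is known in mouse leukocytes as a target of interferon gamma and NF-kB. Its level was 1.16, 3.05, 2.60, 2.12 and 2.08 CPM in null tumors 7, 14, 15, 18 and 23, against 20.3, 10.7, 7.31 and 16.1 CPM in WT tumors 2, 3, 6 and 9. Every null tumor was below every WT tumor, and the group means were 2.20 ± 0.70 CPM (SD, n = 5) in null tumors and 13.6 ± 5.72 CPM (SD, n = 4) in WT tumors. Null over WT, the fitted log2 fold change came to -2.62 (SE 0.40). These levels rested on 23 to 76 estimated counts per null tumor and 125 to 370 per WT tumor. The log2 fold change was -2.51 (SE 0.39) without both null 7 and WT 3. Tumors with identifiers under 20000 and the rest gave the same direction, with means of 2.27 CPM in 3 null tumors against 20.3 CPM in 1 WT tumor, and of 2.10 CPM in 2 null tumors against 11.4 CPM in 3 WT tumors. The labels do not say what the identifiers stand for.

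Serpina3n, the mouse counterpart of human alpha-1-antichymotrypsin, is a secreted acute-phase protein that in mouse inhibits granzyme B and leukocyte elastase. It was the most abundant gene of the cluster in each of the 9 tumors. Its level was 16.3, 48.2, 80.0, 39.8 and 28.9 CPM in null tumors 7, 14, 15, 18 and 23, against 240.0, 22, 62.2 and 194.9 CPM in WT tumors 2, 3, 6 and 9. Tumors WT 2 and WT 9 were far above the rest, whereas WT 3 lay below 4 of the 5 null tumors. The group means were 42.6 ± 24.1 CPM in null tumors and 129.8 ± 104.2 CPM in WT tumors (SD, n = 5 and 4), with a log2 fold change of -1.61 (SE 0.63). It was -1.12 (SE 0.64) without WT 2 and -1.91 (SE 0.51) without WT 3. Among the 3 tumors marked as male by Xist and Y-linked transcripts the direction was the opposite, with a mean of 28 CPM in null 7 and null 18 against 22 CPM in WT 3.

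Serpina3i and Serpina3f, close copies of Serpina3g, were near the limit of detection. Serpina3i was at 0.101, 0.210, 0.993, 0.335 and 0.106 CPM in null tumors 7, 14, 15, 18 and 23, against 2.67, 0.773, 0.500 and 0.955 CPM in WT tumors 2, 3, 6 and 9. Null 15 alone of the null tumors lay within the WT range. Its log2 fold change was -1.74 (SE 0.77), and -1.04 (SE 0.77) without WT 2. Serpina3f had 0 to 7 estimated counts per null tumor and 0 to 15 per WT tumor, and was the 1 gene of the 10 that did not pass the filter on low counts. It reached 1.43 CPM in WT 2 and had no count in null 14 or WT 3, where a count of 0 allows up to 0.158 and 0.258 CPM (3 counts per library, counting error only).

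**Figure D1:**
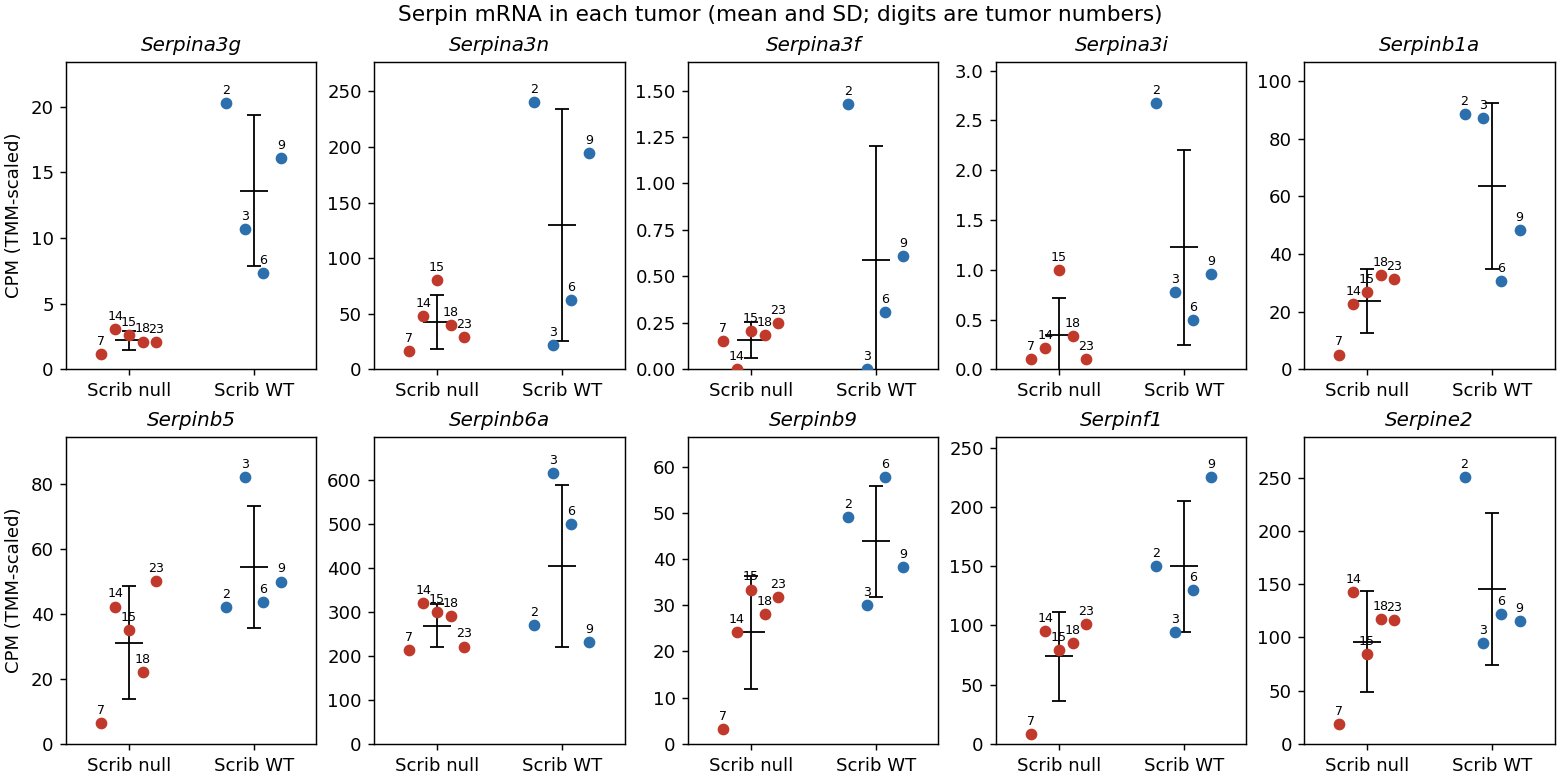
CPM (TMM-scaled) of the 10 serpin genes, 1 panel each with its own linear axis; points are tumors with their numbers, Scrib null in red on the left and Scrib WT in blue on the right, and black bars are mean and SD (n = 5 and 4). The groups stand apart for Serpina3g (1.16 to 3.05 CPM in null tumors, 7.31 to 20.3 CPM in WT tumors) and overlap for the other 9 genes.

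All genes of the Serpina3 cluster together, with the transcribed pseudogene Serpina3h included, reached 46.2 ± 25.6 CPM in null tumors and 149.4 ± 113.5 CPM in WT tumors (SD, n = 5 and 4). Serpina3n made up 90.6% to 93.2% of this sum in null tumors and 62.6% to 89.3% in WT tumors. Serpina3g made up 3.03% to 6.52% in null tumors and 7.35% to 30.6% in WT tumors, with the highest share in WT 3, where Serpina3n was low. The summed feature had a log2 fold change of -1.69 (SE 0.59). The sum matters because the copies share sequence. Of the 31-base words in the longest Serpina3g transcript, 30.12% occurred in transcripts of other genes, mostly of Serpina3f (17.2%) and Serpina3h (14.95%). The share was 21.63% for Serpina3n, 27.37% for Serpina3f and 26.68% for Serpina3i, so counts of single copies depend on how reads were divided among them.

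**Figure D2:**
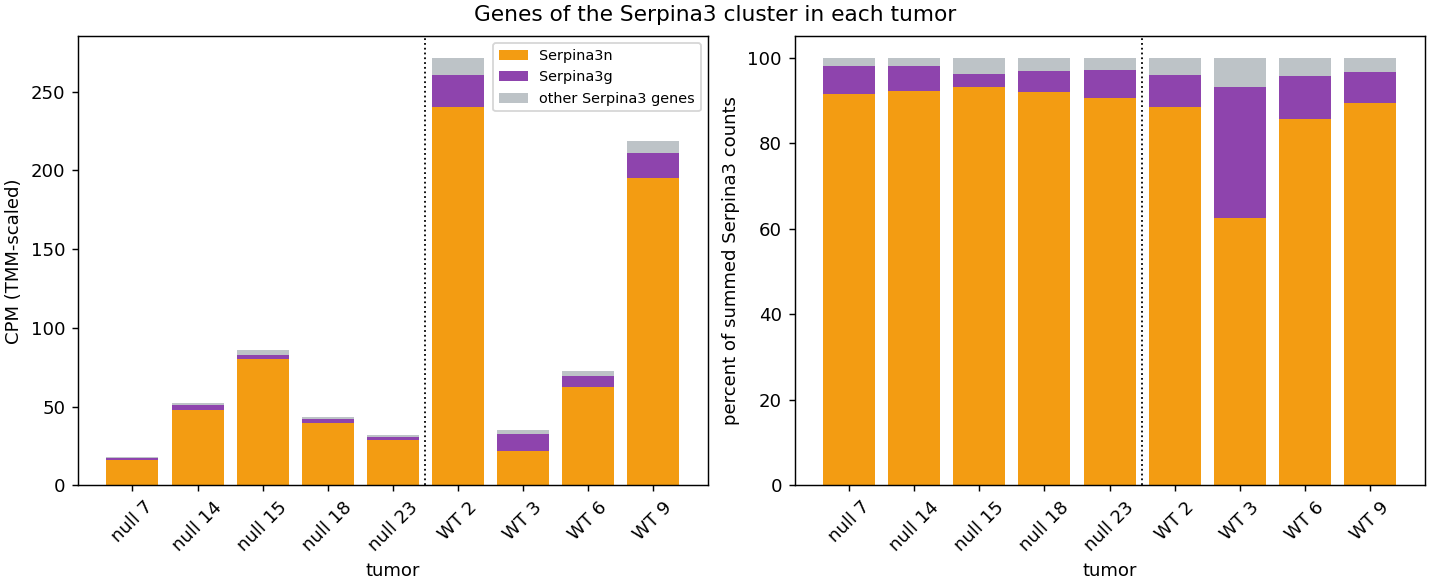
Summed CPM of all Serpina3 genes (left axis panel, TMM-scaled) and the percent of that sum from Serpina3n, Serpina3g and the other Serpina3 genes (right panel) in each tumor, Scrib null left of the dotted line and Scrib WT right of it. Serpina3n dominates in each tumor, and WT 3 has the largest share of Serpina3g (30.6%).

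The clade B genes act mostly inside cells, where the inhibitory ones protect against stray proteases. Serpinb1a, an inhibitor of neutrophil elastase, cathepsin G and proteinase-3, was at 5.15, 22.6, 26.8, 32.6 and 31.2 CPM in null tumors 7, 14, 15, 18 and 23, against 88.5, 87.3, 30.6 and 48.2 CPM in WT tumors 2, 3, 6 and 9. WT 6 lay inside the null range, and the other WT tumors were above it. The log2 fold change was -1.42 (SE 0.48), or -0.94 (SE 0.33) without null 7 and WT 3. A share of 12.02% of its 31-base words also occurred in other genes, chiefly in Serpinb1b and Serpinb1c.

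Serpinb9 encodes the inhibitor of granzyme B with which cytotoxic lymphocytes and other cells shield themselves. It was at 3.28, 24.2, 33.4, 28.2 and 31.8 CPM in null tumors 7, 14, 15, 18 and 23, against 49.1, 30.1, 57.7 and 38.3 CPM in WT tumors 2, 3, 6 and 9. The null tumors other than null 7 lay close together, and 2 of them were above WT 3, the lowest WT tumor. The log2 fold change was -0.86 (SE 0.51), and -0.56 (SE 0.24) without null 7. Granzyme B mRNA itself, Gzmb, was at most 0.274 CPM in null tumors and 0.172 CPM in WT tumors.

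Serpinb5, known as maspin, is an epithelial serpin without inhibitory activity that was described as a tumor suppressor in breast. It was at 6.46, 42.3, 35.0, 22 and 50.3 CPM in null tumors 7, 14, 15, 18 and 23, against 42.2, 82.2, 43.7 and 50.0 CPM in WT tumors 2, 3, 6 and 9. Null 7, null 15 and null 18 lay below every WT tumor, whereas null 14 and null 23 lay within the WT range. Null 7 was the lowest tumor and WT 3 the highest. The log2 fold change of -0.80 (SE 0.48) was -0.24 (SE 0.27) without null 7 and WT 3. Among female tumors the means were 42.6 CPM in null tumors and 45.3 CPM in WT tumors (n = 3 each). Among male tumors, which include both null 7 and WT 3, they were 14.2 CPM in 2 null tumors and 82.2 CPM in 1 WT tumor.

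Serpinb6a, an inhibitor of cathepsin G and of trypsin-like proteases, was at 212.7, 319.4, 299.2, 290.4 and 221.1 CPM in null tumors 7, 14, 15, 18 and 23, against 270.2, 613.8, 499.2 and 230.8 CPM in WT tumors 2, 3, 6 and 9. WT 3 and WT 6 were high, and WT 2 and WT 9 lay within the null range. The log2 fold change was -0.59 (SE 0.31), and -0.28 (SE 0.29) without WT 3. Among tumors with identifiers under 20000 the means were 277.1 CPM in 3 null tumors and 270.2 CPM in 1 WT tumor. Among the rest they were 255.7 CPM in 2 null tumors and 448.0 CPM in 3 WT tumors. Its annotated span overlaps Ripk1 and Nqo2 on the other strand, at 55.3 and 24.4 CPM in null tumors and 45.3 and 28.6 CPM in WT tumors. It also overlaps the antisense gene 1110046J04Rik, at 1.61 CPM in null tumors and 3.06 CPM in WT tumors. No source used here says whether the library kept strand, so reads of overlapping exons may not have been told apart.

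Serpinf1 and Serpine2 are secreted by stromal cells in many tissues. Serpinf1 encodes PEDF, a non-inhibitory serpin that restrains blood vessel growth. It was at 8.68, 95.5, 78.9, 85.4 and 100.8 CPM in null tumors 7, 14, 15, 18 and 23, against 149.8, 94.7, 129.7 and 224.9 CPM in WT tumors 2, 3, 6 and 9. WT 3 lay among the null tumors and the other WT tumors were above them. The log2 fold change was -1.02 (SE 0.54), and -0.71 (SE 0.26) without null 7.

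Serpine2, or protease nexin-1, inhibits thrombin, urokinase and plasmin. It was at 19.1, 142.6, 84.8, 117.2 and 116.2 CPM in null tumors 7, 14, 15, 18 and 23, against 250.6, 94.3, 121.7 and 115.4 CPM in WT tumors 2, 3, 6 and 9. Apart from a low null 7 and a high WT 2 the tumors were alike in range, and the log2 fold change of -0.60 (SE 0.49) was -0.20 (SE 0.49) without WT 2. Among tumors with identifiers of 20000 or more, the mean was 116.7 CPM in 2 null tumors and 110.5 CPM in 3 WT tumors. Among those with lower identifiers it was 82.2 CPM in 3 null tumors and 250.6 CPM in 1 WT tumor, WT 2.

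**Figure D3:**
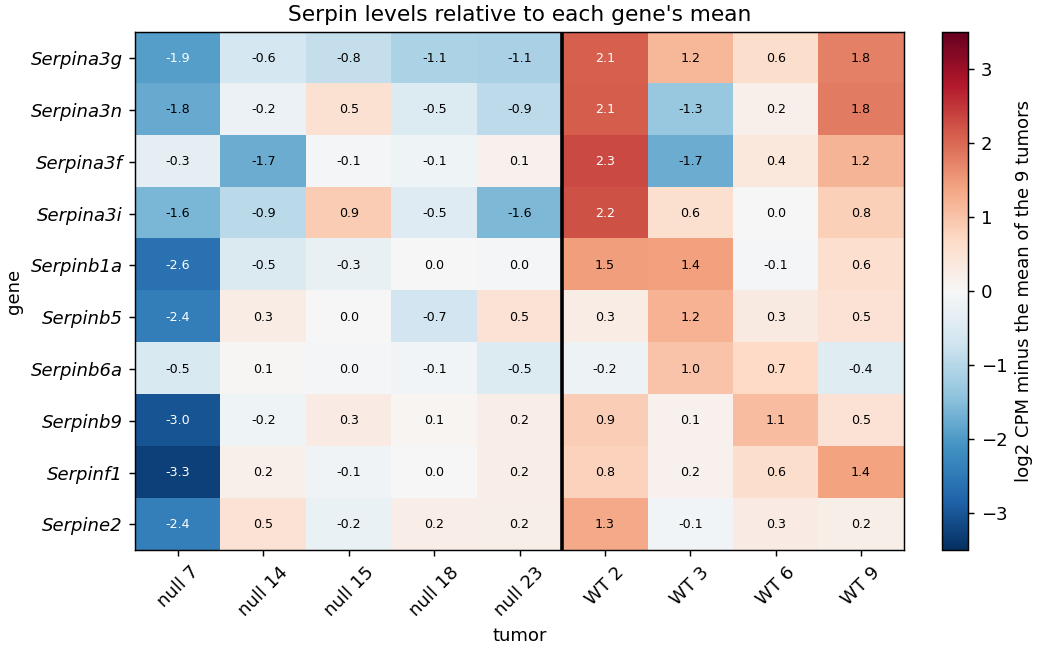
Log2 CPM of each serpin gene minus its own mean over the 9 tumors (colour and printed value; red above, blue below), with Scrib null tumors left of the line and Scrib WT tumors right of it. Null 7 is blue in every row, WT 2 is the highest tumor for 6 genes, among them all 4 Serpina3 genes, and WT 3 is high for Serpina3g, Serpinb1a, Serpinb5 and Serpinb6a but low for Serpina3n and Serpina3f.

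Of the 9 genes that passed the filter, 0 passed an adjusted p of 0.05 in edgeR, where 0.0124% of the 16169 genes tested were called. DESeq2 called 1 of the 10, Serpina3g, where it called 2.34% of genes lower and 1.24% higher. Serpina3g was the 1 gene of the 10 whose groups did not overlap, beside 3.49% of tested genes that did so with the null tumors lower. Nothing further is read from these counts, because the same comparison chose the genes. Null 7 had the lowest level for 9 of the 10 genes, and Serpina3f, the exception, was lowest at 0 in null 14 and WT 3. WT 2 had the highest level for 6 genes.

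Levels of different genes were compared per length, as CPM per kb of merged exons averaged over the 9 tumors. Serpinb6a was highest at 60.7, followed by Serpinf1 at 45.6, Serpina3n at 39.4, Serpinb1a at 18.0, Serpinb5 at 15.1, Serpine2 at 14.2, Serpinb9 at 9.41 and Serpina3g at 3.45 CPM per kb. Serpina3i and Serpina3f were lowest, at 0.332 and 0.152 CPM per kb. From Serpinb6a down to Serpine2, no gene differed from its neighbour in this order by more than the SD of their log2 difference within tumors. Serpine2 lay above Serpinb9 in 8 of 9 tumors, Serpinb9 above Serpina3g in 9 of 9, and Serpina3g above Serpina3i in 9 of 9, each by more than that SD. Serpina3n ranged from 7.90 to 116.3 CPM per kb over the tumors, and Serpinf1 from 3.68 to 95.4.

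The genes whose log2 CPM followed Serpina3g most closely over the 9 tumors, after each group mean was subtracted, were Slc11a2, Lrch1 and Unc93b1 (Pearson r of 0.98, 0.98 and 0.97, Spearman rho of 0.98, 0.97 and 0.93, the highest r of 13981 genes searched). For Serpina3n they were Tlr9, Serpina3m and Htr1b (0.98, 0.97 and 0.96). These are the top of a large search over few tumors and are given as a description. Serpina3m is a further copy in the cluster, and it shares 31-base words with Serpina3n.

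The other 51 serpin genes were tested within the same fit of all genes. Of these, 12 passed the filter on low counts, 15 had no count in any tumor, and the rest were too low to test. No gene of the 12 passed the adjusted threshold in edgeR in either direction or in limma-voom, beside 0.0124% of all genes in edgeR. At an unadjusted p under 0.05 edgeR listed 4 as lower and 0 as higher, beside 10.0% and 7.64% of all genes tested. DESeq2, which gave an adjusted p for 16 of these 51 genes, called 1 lower, Serpina1b, and 0 higher, beside 2.34% and 1.24% of all genes. The log2 fold change was below 0 for 12 of 12, with a median of -0.82, whereas it was below 0 for 52.2% of all genes, with a median of -0.03.

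Serpina1b, a copy of alpha-1-antitrypsin, the main elastase inhibitor of plasma, averaged 0.602 ± 0.408 CPM in null tumors and 2.64 ± 1.23 CPM in WT tumors (SD, n = 5 and 4), with no overlap (log2 fold change -2.10, edgeR adjusted p = 0.221). Serping1, the inhibitor of complement C1, averaged 113.2 ± 62.1 CPM in null tumors and 301.8 ± 176.9 CPM in WT tumors (log2 fold change -1.41, edgeR adjusted p = 0.245). Serpina3m had a log2 fold change of -1.93 and Serpinb8 of -1.68 (edgeR adjusted p = 0.244 and 0.279). The more abundant Serpinh1, a collagen chaperone, had a value of -0.33 (edgeR adjusted p = 0.621).

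**Figure D4:**
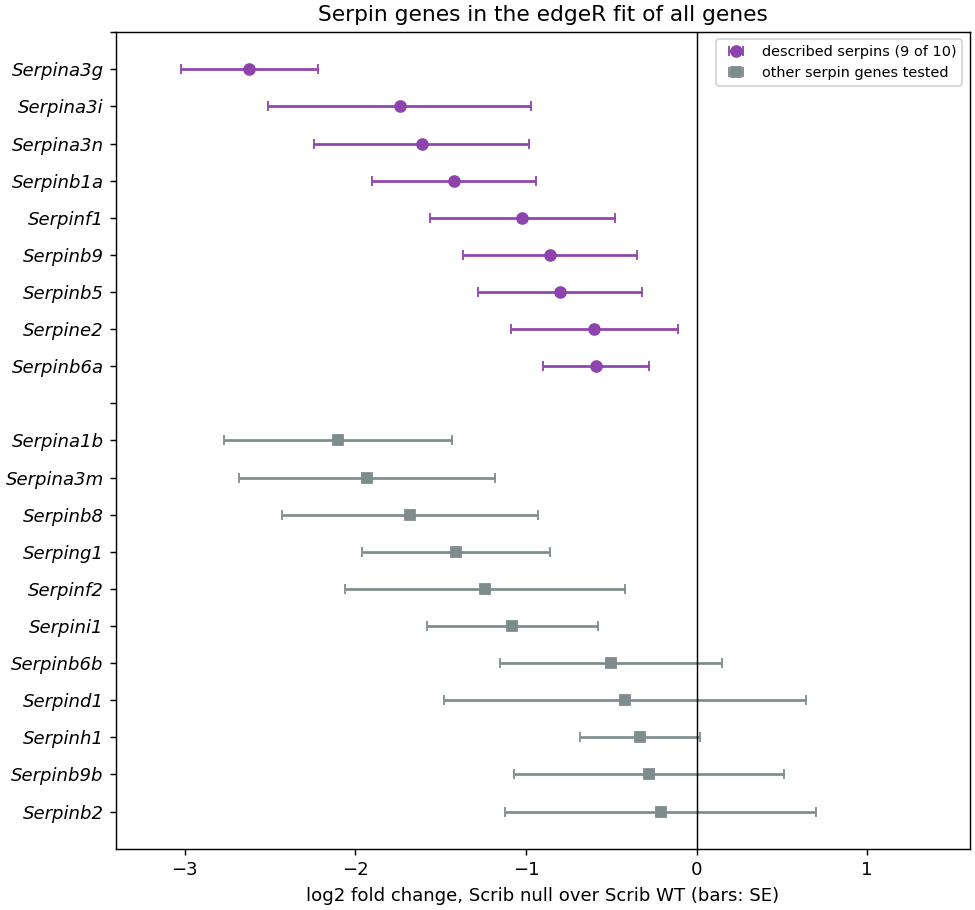
Log2 fold change, Scrib null over Scrib WT, of 20 serpin genes that passed the filter on low counts in the edgeR fit of all genes; purple circles are 9 of the 10 genes described and grey squares 11 others, with SE bars; 1 further tested gene is not shown. All points lie below 0, from -2.62 for Serpina3g to -0.21 for Serpinb2.

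The proteases that these serpins inhibit, and the signals known to induce Serpina3 genes, were counted in 10 lists of 117 genes, of which 98 were tested. In edgeR 0 passed the adjusted threshold, beside 0.0124% of all genes. At an unadjusted p under 0.05 it listed 16 as lower and 3 as higher, beside 10.0% and 7.64% of all genes. Of 103 genes with an adjusted p in DESeq2, it called 8 lower, namely Ctsk, Hp, Hsd11b1, Mcpt1, Mcpt2, Psmb8, Psmb9 and Tsc22d3, and 0 higher, beside 2.34% and 1.24% of all genes. Over the 98 genes the median log2 fold change was -0.33, beside -0.03 for all genes, and 68 were below 0, beside 52.2% of all genes. The lists were chosen with earlier results of these data known. Their shares beside those of all genes are therefore a description and no test of the lists.

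Among cysteine cathepsins, the targets of Serpina3g, edgeR called 0 of 10, and 7 of 10 had a fold change below 0. Ctsk, a collagen-degrading protease, was at 4.19 to 18.8 CPM in null tumors and 60.6 to 203.1 CPM in WT tumors (log2 fold change -3.17, edgeR adjusted p = 0.144). Ctss, expressed by macrophages, had a log2 fold change of -1.04 and Ctsb of -0.55 (edgeR adjusted p = 0.222 and 0.330). Ctsl had a value of 0.38, in the other direction (edgeR adjusted p = 0.515).

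Serine proteases that Serpina3n and the clade B genes can meet gave no call in edgeR either. For the 3 neutrophil proteases tested, log2 fold changes were -1.22 for Prtn3, -1.20 for Ctsg and -0.73 for Elane (edgeR adjusted p from 0.396 to 0.819). Of the granzyme and perforin list 4 of 10 genes were tested, 4 of them below 0, and Gzmc, Gzme and Gzmd had values of -1.51, -0.60 and -0.72. The remaining gene, Gzmm, was nearly equal, with means of 0.832 CPM in null tumors and 0.837 CPM in WT tumors. Of the mast cell proteases Mcpt2 had -5.66, Mcpt1 -3.17 and Mcpt4 -1.77 (edgeR adjusted p = 0.197, 0.197 and 0.282), and Mcpt2 reached 2514.8 CPM in WT 3. Of the 5 tested genes of this list 4 had a fold change below 0, and the exception, the tryptase Tpsb2, had 0.77 (edgeR adjusted p = 0.750). The 3 genes too low to test, Cma1, Cpa3 and Tpsab1, had means of 0.526, 0.308 and 0.107 CPM in null tumors and 0.278, 0.258 and 0.0673 CPM in WT tumors.

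Among genes of plasminogen activation and thrombin signalling, which bear on Serpine2, 3 of 11 had a fold change above 0, and these were the 3 with the smallest p. They were the thrombin and protease receptors F2r (0.58) and F2rl1 (0.81), and urokinase, Plau (0.77; edgeR adjusted p from 0.281 to 0.355). For the tissue activator Plat the value was -1.11 (edgeR adjusted p = 0.364). Of the membrane trypsin-like proteases St14, or matriptase, was at 252.0 to 329.8 CPM in null tumors and 112.0 to 239.9 CPM in WT tumors (log2 fold change 0.64, edgeR adjusted p = 0.237). Tmprss2 had -1.24 and Prss8 0.51 (edgeR adjusted p = 0.221 and 0.290).

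In the list of IL-6 family, STAT3 and acute-phase genes, edgeR called 0 of 19 and the median log2 fold change was -0.35. Haptoglobin, Hp, had -1.85, Lrg1 -0.89 and the oncostatin M receptor Osmr -0.44 (edgeR adjusted p = 0.201, 0.280 and 0.379), while Stat3 had 0.30 and Lcn2 0.73. In the interferon gamma list edgeR called 0 of 20, with a median of -0.26. The immunoproteasome subunits Psmb8 and Psmb9 had -1.36 and -1.43 and the receptor Ifngr1 -0.84 (edgeR adjusted p = 0.201, 0.201 and 0.207), with no overlap between groups.

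Of the glucocorticoid list edgeR called 0 of 8 genes. The cortisone-activating enzyme Hsd11b1 had a log2 fold change of -1.94, Tsc22d3 of -1.10 and Sgk1 of -0.84 (edgeR adjusted p = 0.144, 0.201 and 0.289). Of the NF-kB list edgeR called 0 of 10, with Nfkb2 at 0.69, Tnf at -1.04 and Relb at 0.53 (edgeR adjusted p = 0.256, 0.283 and 0.316).

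Markers of other cell types are given beside these values, and their part in the serpin values was not tested. In edgeR 0 of these markers passed the adjusted threshold, beside 0.0124% of all genes. At an unadjusted p under 0.05 it listed 7 of 10 macrophage markers as lower, beside 10.0% of all genes tested. It also listed 3 of 5 tested B and plasma cell and 2 of 6 tested T and NK markers as lower. The same held for 2 of 9 fibroblast, 2 of 7 endothelial and 2 of 6 pericyte and smooth muscle markers. Of the rest, 1 of 8 neutrophil, 1 of 5 tested hepatocyte, 1 of 4 mesothelial and 1 of 2 tested adipocyte markers were listed as lower. As higher it listed 1 of 8 epithelial and 1 of 5 tested hepatocyte markers, beside 7.64% of all genes. The marker lists were chosen with earlier results of these data known, so these counts are a description. The summed levels of the groups overlapped for most lists. In whole tumors fewer cells of a type and less RNA per cell cannot be told apart. The summed level of 10 macrophage markers was 427.5 to 914.4 CPM in null tumors and 735.9 to 1835.4 CPM in WT tumors, with 10 of 10 fold changes below 0. That of 9 fibroblast markers was 366.3 to 4526.7 CPM in null tumors and 2180.7 to 9272.4 CPM in WT tumors, with 9 of 9 below 0. Of all genes tested, 52.2% had a fold change below 0. Null 7 was the lowest tumor for the macrophage, fibroblast and endothelial sums, as it was for 9 of the serpin genes. It was also lowest for the epithelial, neutrophil, T and NK, B and plasma cell, pericyte and adipocyte sums. For the hepatocyte, acinar and mesothelial sums it was not the lowest. WT 2 was the highest for macrophages, fibroblasts, hepatocytes and B and plasma cells. Its endothelial sum, 202.5 CPM, was the lowest of the WT tumors, and its neutrophil sum was 289.7 CPM.

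The neutrophil sum (8 markers) was 92.9 to 639.6 CPM in null tumors and 222.0 to 2846.9 CPM in WT tumors, with its highest value in WT 3. Endothelial markers (7) summed to 46.5 to 224.2 CPM in null tumors and 202.5 to 440.1 CPM in WT tumors, and pericyte and smooth muscle markers (6) to 66.9 to 283.1 CPM in null tumors and 229.0 to 470.7 CPM in WT tumors. Lymphoid markers were scarce. The T and NK sum (10 markers) was 2.37 to 8.01 CPM in null tumors and 4.97 to 12.9 CPM in WT tumors, and the B and plasma cell sum (6) was 1.06 to 10.9 CPM in null tumors and 10.9 to 45.4 CPM in WT tumors.

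Hepatocytes are the main source of Serpina3 and Serpina1 proteins in the body. Their 7 markers summed to 2.95 to 7.02 CPM in null tumors and 6.35 to 93.9 CPM in WT tumors, with Alb, the albumin gene, at no more than 1.19 CPM in null tumors and 2.77 CPM in WT tumors. The upper value came from WT 2, where Apoa1 was at 77.0 CPM. Epithelial markers (8) summed to 6098.7 to 9881.9 CPM in null tumors and 6804.0 to 9910.3 CPM in WT tumors, and mesothelial markers (4) to 241.4 to 619.2 CPM in null tumors and 363.4 to 1505.9 CPM in WT tumors. Msln made up most of the mesothelial sum, with a log2 fold change of -0.97. The other mesothelial markers were split, with Wt1 at -0.28, Upk3b at 0.64 and Lrrn4 at 0.23. Acinar markers (7) ran from 0.706 to 301.8 CPM in null tumors and from 0.955 to 451.2 CPM in WT tumors. Adipocyte markers (5, with Lep at 0 in all tumors) summed to 10.2 to 26.0 CPM in null tumors and 46.6 to 225.9 CPM in WT tumors, where Fabp4 made up most of the sum.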

How the data were processed

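RNA was measured in 5 Scrib null and 4 Scrib WT tumors. The authors deposited 1 table of estimated counts per gene and tumor, not normalized; per the submitters' processing notes it was made with Salmon 1.4.0, with DESeq 2 and the builds GRCm38 and mm10 also named. The annotation release was not stated in the labels.

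Symbols and coordinates came from GENCODE M21 for 54200 of 54453 rows, none of which lacked an identifier. Estimated counts were rounded, by at most 0.5, and low genes were left out with filterByExpr (minimum count 10, minimum total 15), which left 16169. Null and WT tumors were compared in R 4.3.3 by the quasi-likelihood method of edgeR 4.0.16 with TMM scaling, Benjamini-Hochberg adjusted over all genes, with a threshold of 0.05; log2 CPM used a prior count of 2. The fit was run on simulated data with known changes. Totals of 10145830 to 27596832 per tumor and a biological coefficient of variation of 0.494 set the precision. A floor of 3 counts covers counting error only.

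The 10 genes and the lists were chosen with earlier results of these data known. Genes named besides them were other serpins with the smallest p and a mean of at least 1 CPM in a group (up to 4 each way), the 3 genes of smallest p in each list, the 3 genes most like Serpina3g and Serpina3n, and Scrib. Epcam, Ctsl, Plat, Stat3, Lcn2, Gzmb, Gzmm, Alb, Apoa1, Fabp4, Tpsb2, Cma1, Cpa3, Tpsab1, Msln, Wt1, Upk3b, Lrrn4, Serpinh1 and Serpinb2 were named after their values were seen. Values of some single genes that enter the counts are not reported here. Alternatives were other scalings and filters, DESeq2 1.42.0, limma-voom (limma 3.58.1), the identifier range (under 20000) as covariate, each tumor left out, both tumors that stood apart left out and summed Serpina3 counts. Sex as covariate was chosen after seeing the data.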

Additional observations from a re-analysis of the deposited data

Results flagged for a closer look

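Serpina3i in null 15, at 0.993 CPM, lay far above the other null tumors (0.101 to 0.335 CPM). The gap to the next tumor was 0.737 of the group's range, against a 95% critical value of 0.71. Serpinf1 in null 7, at 8.68 CPM, lay far below the other null tumors (78.9 to 100.8 CPM), with a gap of 0.761 of the range. Among 20 groups tested (10 genes in null and in WT tumors) 2 held such a tumor, where chance alone marks about 1 in 20.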

How the results depend on the processing

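The log2 fold changes of the 9 serpin genes kept their sign under every alternative in which the gene was fitted. Because the genes were chosen on this same comparison, the kept sign is a description and lends it no support. Within single subsets by sex or identifier range, the means of Serpina3n, Serpine2 and Serpinb6a did not all keep this direction, as given above. Serpina3i was not fitted with the stricter filter, and Serpina3g, Serpina3n and Serpina3i were not fitted singly where the Serpina3 counts were summed. With single tumors left out the log2 fold changes ran from -2.83 to -2.36 for Serpina3g and from -1.96 to -1.12 for Serpina3n. For Serpina3i they ran from -2.63 to -1.04 and for Serpine2 from -0.79 to -0.20. Ranks of level per length were the same for 7 of 10 genes with the longest transcript in place of merged exons.

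Of all genes, edgeR called 2, against 7 with no filter, 642 with DESeq2, 0 with the identifier range as covariate, 0 without both null 7 and WT 3 and 1 with sex as covariate. With single tumors left out it called 0 to 1. Among the other serpin genes 0 were called, against 1 with DESeq2. Among protease and pathway genes 0 were called, against 8 with DESeq2 and 1 with no filter. The cause was not tested. No paired analysis was possible because the groups share no replicate number.

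Depth limits Serpina3f and Serpina3i most, whose counts were near 0 in some tumors; the division of reads among the Serpina3 copies could not be checked from gene totals.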
